A study of Mus musculus with 9 samples.

Results

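The genes described here are 10 members of the ADAMTS family, which encode secreted metalloproteinases with a disintegrin-like domain and thrombospondin type 1 repeats. They are the rows of the deposited gene table whose gene name is Adamts1, Adamts2, Adamts4, Adamts5, Adamts7, Adamts8, Adamts9, Adamts12, Adamts14 or Adamts15, 10 of its 43346 rows. RNA-Seq was carried out on lung fibroblasts from aged Col1a1-GFP mice, given in the labels as 72 weeks and elsewhere in them as 18 months old. Aged sham mice (4 libraries) had received a single intratracheal dose of saline and aged bleo mice (5 libraries) a single intratracheal dose of bleomycin, a drug that injures the lung and brings on fibrosis. At day 30 the lungs were dissociated, and cells that were GFP+, CD45-, CD31- and EpCAM- were sorted. The mice were males on an FVB background, and both groups carry the Col1a1-GFP transgene, so the gate holds cells in which the Col1a1 promoter is active. The library numbers equal the numbers of lungs the labels give per group. No library of young mice was analysed here.

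ADAMTS enzymes are made with a propeptide that furin-like convertases remove, and they cut matrix proteins at a zinc-bearing active site. By their best known substrates they fall into procollagen N-proteinases (Adamts2, Adamts14), which cut the N-propeptide from fibrillar procollagen, hyalectanases (Adamts1, Adamts4, Adamts5, Adamts8, Adamts9, Adamts15), which cut versican and aggrecan, and a pair that cuts cartilage oligomeric matrix protein, COMP (Adamts7, Adamts12). In the lung, these enzymes act on the collagen and proteoglycan that fibroblasts lay down, and Timp3 is their best known tissue inhibitor.

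The stretch that codes for the zinc-binding site is shown for the 6 genes whose level changed. It is also shown for Adamts2, the procollagen enzyme whose level did not pass the test. The site is what makes all of them proteases, and its bases differ between members without following the substrate groups throughout. Each line gives 36 coding bases read 5′ to 3′ on the gene's own strand in GENCODE M21 (GRCm38), with the codons of the 3 zinc-binding histidines in capitals.
Adamts2: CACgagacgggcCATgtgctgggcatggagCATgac
Adamts14: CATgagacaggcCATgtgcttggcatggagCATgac
Adamts1: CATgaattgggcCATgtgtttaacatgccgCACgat
Adamts5: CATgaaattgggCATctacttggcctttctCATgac
Adamts15: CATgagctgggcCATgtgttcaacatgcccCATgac
Adamts7: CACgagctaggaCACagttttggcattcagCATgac
Adamts12: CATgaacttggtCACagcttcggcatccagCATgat
The bases lie within chr11:50775403-50776137 for Adamts2 (exons 7 and 8), chr9:90179456-90180643 for Adamts7 (exons 7 and 8) and chr15:11241529-11255567 for Adamts12 (exons 7 and 8) on the plus strand, and within chr10:61225462-61227123 for Adamts14 (exons 7 and 8), chr16:85799188-85799545 for Adamts1 (exons 3 and 4), chr16:85878012-85887826 for Adamts5 (exons 2 and 3) and chr9:30911252-30911690 for Adamts15 (exons 2 and 3) on the minus strand. In all 10 members the site was spliced together from a pair of neighbouring exons, so the spans given include an intron. Over all 10 members, 14 of the 36 bases were the same. The closest pair was Adamts2 and Adamts14 with 33 shared bases, and the least alike pairs shared 20. The codon at the 8th place began with gg in 5 members, both procollagen enzymes, both COMP-cleaving enzymes and Adamts5, and did not in the other 5, all hyalectanases.

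Depth was similar in both groups, while some markers of other cell types were not. Library totals were 49921946 to 62370512 counts in aged sham and 53833507 to 68260600 in aged bleo, so a count of 0 would allow up to 3 counts, or 0.0409 to 0.0605 CPM (counts scaled to library size with edgeR's TMM factors), and every member lay far above this limit. Within the aged bleo group, libraries 4 and 5 stood apart from the other 3 (chi-square per degree of freedom 133 to 378 between the sets, 29.2 to 64.2 within the set of 3). Between libraries 4 and 5 the value was 87.2, so they also differed more from each other than any pair of the other 3. Fibroblast markers were abundant, Col1a1 at 3649 to 4559 CPM in aged sham and 13560.2 to 25954 CPM in aged bleo, while the sorted-out types left Ptprc at 42.3 to 169 and 30.6 to 183 CPM, Pecam1 at 5.63 to 6.70 and 2.44 to 6.39 CPM, and Epcam at 0.485 to 0.798 and 0.409 to 1.20 CPM. Of 7 fibroblast markers, 3 were called higher (Col1a1, Col1a2 and Col3a1) and 2 lower (Dcn and Tcf21). Pdgfra and Lum were not called, and the median log2 fold change of the 7 was -0.18. Of 6 macrophage markers 4 were called higher, and the summed level of all 6 was 129.9 to 245 CPM in aged sham and 434 to 1376 CPM in aged bleo, highest in aged bleo 4. All 8 immediate early genes (Fos, Jun, Egr1 and the like) were called lower, summed 14210.4 to 18347 CPM against 5278 to 11419 CPM. Of 7 smooth muscle and pericyte markers 1 was called higher and 2 lower (summed 2586 to 5226 against 1853 to 2991 CPM), and of 6 endothelial markers 2 were called higher and 1 lower (summed 159.7 to 194 against 24.8 to 67.4 CPM, of which Tek, the marker called lower, made up most in aged sham). Of 6 epithelial markers 1 was called higher (summed 8.30 to 78.6 against 14.9 to 50.2 CPM), of 5 leukocyte markers 1 was (summed 96.3 to 365 against 96.8 to 566 CPM), and none of 5 neutrophil markers (summed 149.9 to 923 against 69.9 to 819 CPM) or 5 mesothelial markers (summed 27.6 to 79.4 against 32.5 to 118 CPM) was called. No marker of these lists was at 0 in every library, and the part of these shifts in the ADAMTS results was not tested.

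The comparison asks how the ADAMTS genes of aged lung fibroblasts differed 30 days after bleomycin from those of saline-treated aged lungs. Adamts12, Adamts7, Adamts14 and Adamts15 rose and Adamts5 and Adamts1 fell, while Adamts2, Adamts4, Adamts8 and Adamts9 did not pass the test. A gene was called when edgeR's quasi-likelihood test gave a Benjamini-Hochberg adjusted p under 0.10 over the 16877 genes tested and a fold change over 1.5. Of the 10 members, all of which passed the filter on low counts, 4 were called higher, where 12.3% of all tested genes were, and 2 were called lower, where 11.5% of all tested genes were. The median log2 fold change was 0.65 over the members and 0.0064 over all tested genes. Every aged bleo library lay above every aged sham library in 4 members, against 16.1% of all tested genes, and below in 2 members, also against 16.1%. These are bulk samples, so fewer cells of a type and less RNA per cell cannot be told apart.

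**Figure D1:**
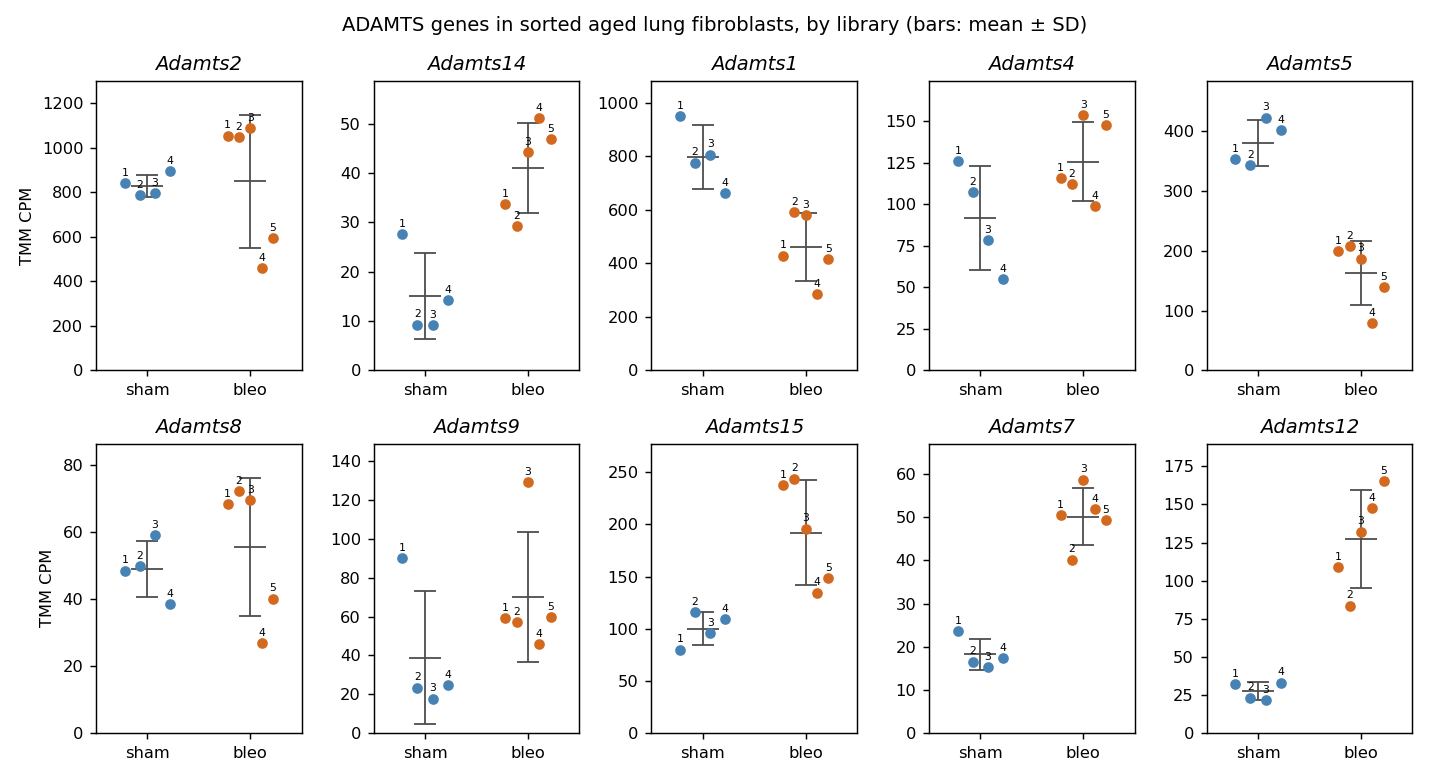
Level of each gene in TMM-scaled CPM (vertical axis, from 0, its own scale in each panel) in the 4 aged sham and 5 aged bleo libraries, numbered by replicate, with the mean ± SD as bars. The groups do not overlap for Adamts14, Adamts1, Adamts5, Adamts15, Adamts7 and Adamts12, while aged bleo 4 and 5 lie far below the other aged bleo libraries for Adamts2 and Adamts8.

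Adamts2, the main enzyme that trims the N-propeptides of types I and III procollagen, did not pass the test although its level varied widely after bleomycin. It stood at 840.5, 787, 797 and 896 CPM in aged sham libraries 1 to 4 and at 1055, 1049, 1088, 461 and 595 CPM in aged bleo libraries 1 to 5. Aged bleo 1, 2 and 3 lay above all 4 aged sham libraries, and aged bleo 4 and 5 lay below all of them. Its log2 fold change was 0.034 with a 95% interval of -0.54 to 0.60 (edgeR adjusted p = 0.932). With aged bleo 4 and 5 both left out, an alternative chosen after the values were seen, the log2 fold change was 0.35 (edgeR adjusted p = 0.00937). This is still under the fold threshold. The study names Adamts2 among genes strongly lower in aged than in young fibroblasts, with the same trend after bleomycin relative to uninjured young ones. Without young libraries, that comparison was not made here.

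Adamts14, which shares the procollagen substrates of Adamts2, rose 2.72-fold. It stood at 27.7, 9.27, 9.15 and 14.3 CPM in aged sham 1 to 4 and at 33.8, 29.3, 44.2, 51.1 and 47.0 CPM in aged bleo 1 to 5. All aged bleo libraries lay above all aged sham libraries, but narrowly, since aged sham 1 came close to aged bleo 2. The means were 15.1 ± 8.72 (SD, n = 4) and 41.1 ± 9.19 CPM (SD, n = 5), with log2 fold change 1.44, SE 0.34, adjusted p = 0.0119 by edgeR. Aged bleo 4 and 5, the lowest libraries for Adamts2, were the highest for Adamts14. Per length, in the deposited FPKM, Adamts14 amounted to 2.06 to 5.91% of Adamts2 in aged sham and 5.02 to 19.9% in aged bleo, ranges that overlap. Adamts2 was the more abundant transcript of the pair in each library.

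Among the hyalectanases, Adamts5, the main aggrecan-cutting enzyme of mouse cartilage and a versican-cutting enzyme elsewhere, fell most. It stood at 354, 343, 423 and 402 CPM in aged sham 1 to 4 and at 199.8, 208, 187, 78.5 and 139 CPM in aged bleo 1 to 5. All aged bleo libraries lay below all aged sham libraries, with aged bleo 4 lowest. The means were 381 ± 38.2 (SD, n = 4) and 163 ± 54.0 CPM (SD, n = 5), 2.34-fold lower after bleomycin (log2 fold change -1.23, SE 0.25, adjusted p = 0.00646 by edgeR).

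Adamts1, a versican- and aggrecan-cutting enzyme first found as an inflammation-induced gene, fell as well. It stood at 950.2, 776, 807 and 661 CPM in aged sham 1 to 4 and at 429, 592, 580.3, 286 and 416 CPM in aged bleo 1 to 5. The lowest aged sham library, number 4, lay above the highest aged bleo library, number 2. The means were 799 ± 119 (SD, n = 4) and 461 ± 128 CPM (SD, n = 5), 1.73-fold lower after bleomycin (log2 fold change -0.79, SE 0.21, adjusted p = 0.0183 by edgeR). The summed immediate early genes were lower in all aged bleo libraries too, and their part in this result was not tested.

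Adamts15, another versican-cutting enzyme, rose 1.92-fold, opposite in direction to Adamts1 and Adamts5. It stood at 79.9, 116, 95.5 and 109 CPM in aged sham 1 to 4 and at 238, 244, 196, 135 and 148 CPM in aged bleo 1 to 5. The groups did not overlap, and the rise was smallest in aged bleo 4 and 5. The means were 100.1 ± 15.9 (SD, n = 4) and 192 ± 50.1 CPM (SD, n = 5), with log2 fold change 0.94, SE 0.20, adjusted p = 0.00771 by edgeR.

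The other hyalectanases did not pass the test. Adamts4, an aggrecanase, stood at 126, 107, 78.3 and 55.0 CPM in aged sham 1 to 4 and at 116, 112, 153, 98.7 and 148 CPM in aged bleo 1 to 5, and the groups overlapped. The log2 fold change of Adamts4 was 0.45 (95% interval -0.075 to 0.98, edgeR adjusted p = 0.161), and without aged sham 1, its highest sham library, it became 0.64 with an adjusted p of 0.0687, which passes both thresholds. Without aged sham 4, the lowest sham library for Adamts4, it was 0.27 (edgeR adjusted p = 0.324). Adamts8, known for blocking blood vessel growth in assays, stood at 48.5, 49.9, 59.0 and 38.5 CPM in aged sham 1 to 4 and at 68.4, 72.2, 69.6, 26.9 and 40.1 CPM in aged bleo 1 to 5. As for Adamts2, aged bleo 1, 2 and 3 lay above all sham libraries, while aged bleo 4 lay below all of them and aged bleo 5 below all but 1. The log2 fold change of Adamts8 was 0.18 (95% interval -0.46 to 0.81, edgeR adjusted p = 0.652), and 0.51 (adjusted p = 0.0190) with aged bleo 4 and 5 left out, under the fold threshold.

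Adamts9, a versican-cutting enzyme with a long row of thrombospondin repeats, was uneven in both groups. It stood at 89.9, 23.3, 17.7 and 24.5 CPM in aged sham 1 to 4 and at 59.4, 57.1, 129, 45.7 and 59.7 CPM in aged bleo 1 to 5. Aged sham 1 and aged bleo 3 stood far above the rest of their groups, and aged sham 1 exceeded every aged bleo library but number 3. The log2 fold change was 0.85 (95% interval -0.30 to 2.01, edgeR adjusted p = 0.224), and 1.68 (adjusted p = 0.0106) without aged sham 1, which is past the thresholds. Without aged bleo 3 it was 0.51 (adjusted p = 0.450).

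Both COMP-cleaving members rose, and in the main fit they had the largest rises and the smallest adjusted p-values of the 10 members. The log2 fold change of Adamts14 (1.44) was close to that of Adamts7 (1.46). By limma on log2 CPM that of Adamts14 was the larger (1.57 against 1.47). Adamts12 stood at 32.0, 23.2, 21.6 and 33.1 CPM in aged sham 1 to 4 and at 109, 83.6, 132, 147 and 165 CPM in aged bleo 1 to 5. The lowest aged bleo library, number 2, was above the highest aged sham library by more than the whole sham range, and aged bleo 5 and 4 were highest. The means were 27.5 ± 5.93 (SD, n = 4) and 127 ± 32.1 CPM (SD, n = 5), a 4.64-fold rise (log2 fold change 2.22, SE 0.22, adjusted p = 2.01e-04 by edgeR).

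Adamts7, the closest relative of Adamts12 in domain layout, with a mucin-like stretch, rose 2.75-fold. It stood at 23.6, 16.5, 15.3 and 17.4 CPM in aged sham 1 to 4 and at 50.6, 40.2, 58.7, 51.8 and 49.3 CPM in aged bleo 1 to 5. The groups lay well apart, and aged bleo 4 and 5 sat among the other aged bleo libraries. The means were 18.2 ± 3.68 (SD, n = 4) and 50.1 ± 6.66 CPM (SD, n = 5), with log2 fold change 1.46, SE 0.15, adjusted p = 2.07e-04 by edgeR. The end of Tbc1d2b overlaps Adamts7 on the genome and reads there cannot be told apart without strand. Tbc1d2b stood at 10609 to 15765 raw counts in aged sham and 9087 to 11654 in aged bleo, and its part in this result was not tested. Per length, the ratio of Adamts12 to Adamts7 was 1.37 to 1.91 in aged sham and 2.10 to 3.38 in aged bleo, without overlap.

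**Figure D2:**
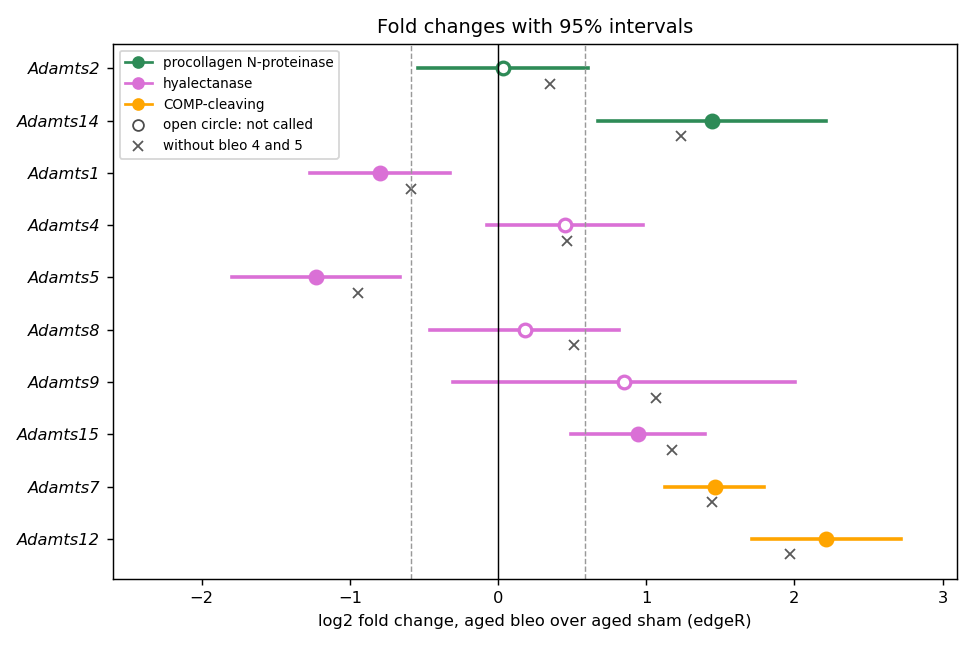
Log2 fold change of aged bleo over aged sham from edgeR (circles, filled where called) with 95% intervals (lines), coloured by substrate group, and the same value with aged bleo 4 and 5 left out (crosses). The dashed lines mark a fold change of 1.5 in either direction. Both COMP-cleaving genes and Adamts14 lie well to the right, Adamts5 and Adamts1 to the left, and leaving out the pair of libraries changes no side of the zero line.

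Upstream sequence is shown for Adamts12, which rose most, and Adamts1, the most abundant member in aged sham, because the study examined motifs near start sites, that of NFATc1 among them. Each line gives the 250 bases before the gene's start from RefSeq (GRCm38.p6), 5′ to 3′ on the gene's strand, with the NFAT core GGAAA or its reverse complement TTTCC, and the TATA box TATAAA, in capitals.
Adamts12: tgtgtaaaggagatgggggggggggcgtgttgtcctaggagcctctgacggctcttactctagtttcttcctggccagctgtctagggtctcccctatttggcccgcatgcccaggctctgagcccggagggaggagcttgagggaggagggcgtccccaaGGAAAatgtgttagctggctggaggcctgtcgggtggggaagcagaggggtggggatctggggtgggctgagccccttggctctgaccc
Adamts1: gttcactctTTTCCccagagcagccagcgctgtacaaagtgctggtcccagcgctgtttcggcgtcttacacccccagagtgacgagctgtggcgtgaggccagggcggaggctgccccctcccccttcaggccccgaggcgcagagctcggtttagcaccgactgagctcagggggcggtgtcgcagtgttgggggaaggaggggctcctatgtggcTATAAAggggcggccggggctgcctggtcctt
The windows are chr15:11064523-11064772 on the plus strand and chr16:85803114-85803363 on the minus strand. With the base just before the start counted as -1, the NFAT core began at -89 in Adamts12 and at -241 in Adamts1, and the TATA box at -32 in Adamts1. Windows of 5 of the 10 members were matched, and GGAAA on either strand was found in 3 of them (Adamts12, Adamts14 and Adamts1) but not in Adamts2 or Adamts9, while 55.6% of all 32851 windows of this length hold it. TATAAA on either strand was found only in that of Adamts1, of the 5, and in 12.4% of all windows. The GC box GGGCGG, on either strand, was found in Adamts14, Adamts2, Adamts9 and Adamts1 and in 32.7% of all windows, and overlaps none of the other motifs in these windows. The 5 windows were 63.2 to 78.0% G and C, against a median of 52.4% over all windows. The part of base content in these matches was not tested. The AP-1 motif TGANTCA was found in none of the 5 and in 6.75% of all windows. These are matches of letters only. The study searched wider windows, on both sides of start sites, for motifs found de novo, so these matches do not bear on its motif result.

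Compared per length, the order of the genes differed between the groups. In aged sham the mean FPKM was 63.2 ± 9.79 for Adamts1, 37.3 ± 1.60 for Adamts2, 19.7 ± 1.93 for Adamts5, 8.01 ± 2.77 for Adamts4, 7.08 ± 1.14 for Adamts15 and 4.46 ± 0.821 for Adamts8 (SD, n = 4). Adamts12, Adamts9, Adamts14 and Adamts7 followed at mean FPKM of 1.84 to 1.21. The ranges of the first 3 did not overlap with that of the next gene down, nor did those of Adamts15 with Adamts8 or Adamts8 with Adamts12, while Adamts4 and Adamts15 overlapped and the last 4 overlapped from one to the next. In aged bleo the order by mean FPKM was Adamts2 at 38.9 ± 12.9, Adamts1 at 37.1 ± 9.35, Adamts15 at 13.9 ± 3.41, Adamts4 at 11.2 ± 1.96, Adamts12 at 8.82 ± 2.35 and Adamts5 at 8.58 ± 2.72 (SD, n = 5). Adamts8, Adamts7, Adamts14 and Adamts9 followed at mean FPKM of 5.13 to 2.39. There, the only neighbours in the order whose ranges did not overlap were Adamts1 and Adamts15. Adamts12 moved from rank 7 to rank 5, and Adamts5 from rank 3 to rank 6.

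The summed level of the 10 genes overlapped between groups, with FPKM sums of 132 to 161 in aged sham and 93.1 to 158 in aged bleo, lowest in aged bleo 4 and 5. The make-up of that sum shifted in each library. Adamts1 made up 38.8 to 46.6% of it in aged sham and 24.2 to 31.0% in aged bleo, and Adamts5 11.4 to 15.5% and 4.68 to 7.39%. Adamts15 went from 3.50 to 5.82% to 8.74 to 12.0%, and Adamts12 from 1.00 to 1.65% to 3.73 to 11.4%. The share of Adamts2 overlapped (23.4 to 29.9% and 23.4 to 33.8%). By substrate group, the FPKM sum of the COMP-cleaving pair was 2.49 to 3.72 in aged sham and 8.31 to 14.9 in aged bleo, without overlap. The hyalectanase sums of 88.0 to 117 and 52.2 to 93.2 overlapped, as did the procollagen N-proteinase sums of 36.6 to 40.5 and 26.6 to 52.2.

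**Figure D3:**
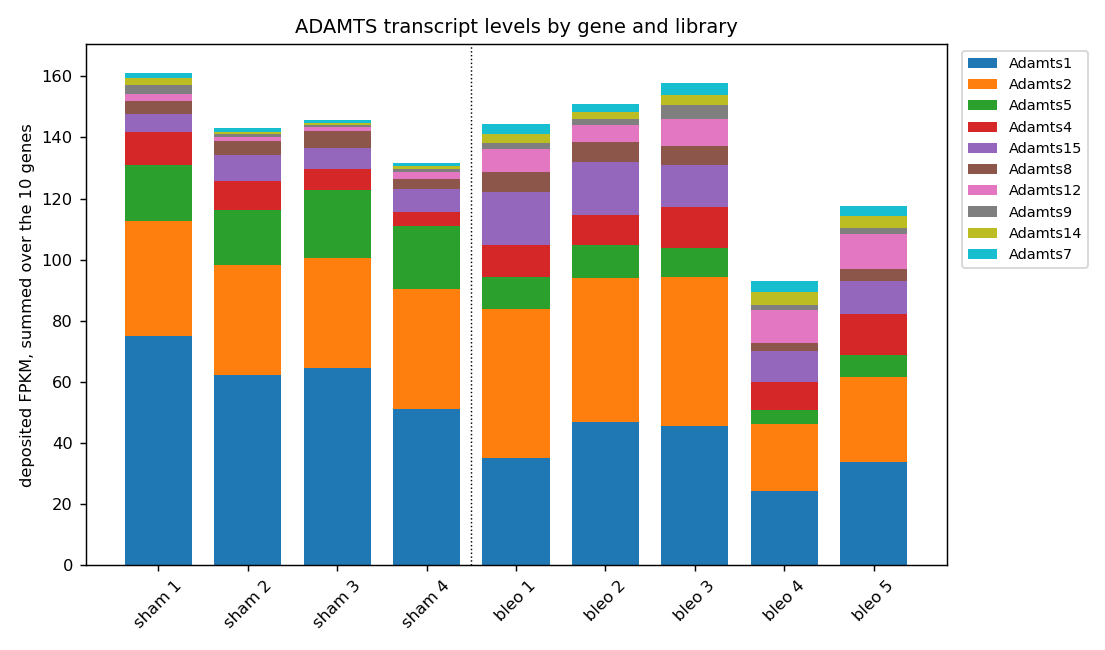
Deposited FPKM (vertical axis, from 0) of the 10 genes stacked for each library, aged sham left of the dotted line and aged bleo right of it, with genes from the bottom up in their aged sham order. The bottom segment, Adamts1, shrinks from at least 38.8% of each sham bar to at most 31.0% of each bleo bar, and the bars of aged bleo 4 and 5 are the shortest.

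Within groups some of the genes varied together and others in opposite directions. On log2 CPM centred within each group, so that the group difference is taken out, Pearson's r over the 9 libraries was 0.93 between Adamts2 and Adamts5, 0.91 between Adamts5 and Adamts8 and 0.89 between Adamts2 and Adamts8. It was 0.87 between Adamts7 and Adamts14, 0.86 between Adamts1 and Adamts8 and 0.84 between Adamts7 and Adamts9. It was 0.81 between Adamts2 and Adamts15, 0.78 between Adamts12 and Adamts14 and 0.56 between Adamts1 and Adamts9. The lowest values were -0.72 between Adamts12 and Adamts15 and -0.70 between Adamts8 and Adamts12. These are descriptions over libraries that also share depth and cell make-up, and much of the pattern lies in aged bleo 4 and 5, where Adamts2, Adamts5, Adamts8, Adamts1 and Adamts15 were under their group mean and Adamts12 and Adamts14 above it. Aged bleo 4 also had the highest summed macrophage and leukocyte markers of its group, 1376 and 566 CPM. In aged bleo 5 these sums were 795 and 142 CPM, against 434 to 645 and 96.8 to 152 CPM in aged bleo 1 to 3. The part of these markers in this pattern was not tested. Adamts7 stayed near its group mean in aged bleo 4 and 5 (0.059 and -0.013 in log2 CPM). In aged sham 1, both Adamts7 (0.39) and Adamts14 (1.03) were above their group mean. Among the 15270 genes searched, the 3 most like Adamts1 by this measure were Vezf1 (r = 0.99), Stat2 (0.98) and Gm15726 (0.98), and the 3 most like Adamts2 were Gm16567, C1s1 and Cfb (0.99 each).

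**Figure D4:**
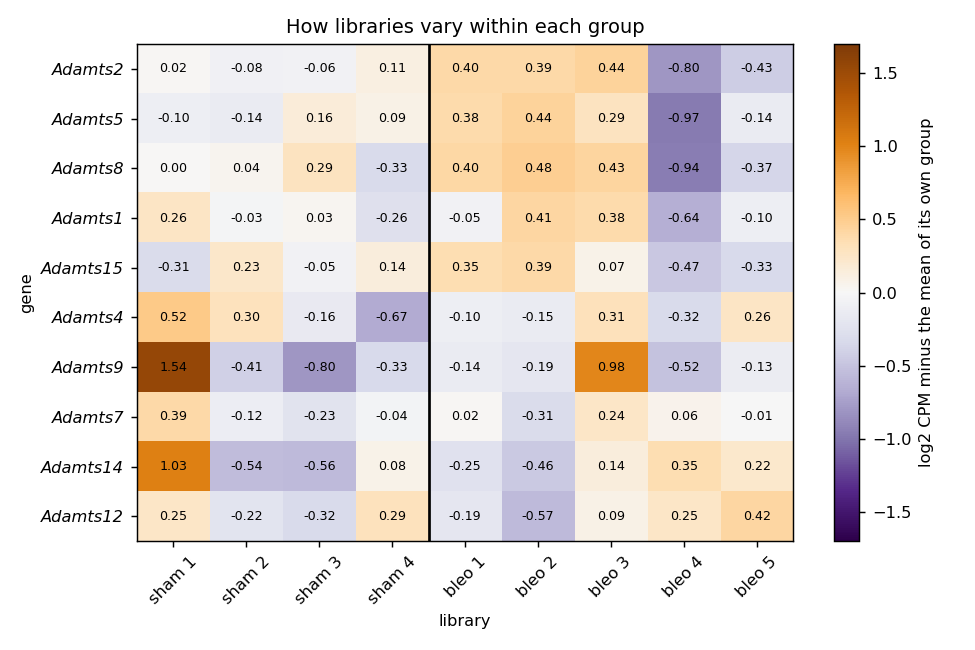
Log2 CPM of each gene (rows) in each library (columns) minus the mean of the library's own group, with the value in each cell and aged sham left of the line. Aged bleo 4 is lowest of its group for Adamts2, Adamts5, Adamts8, Adamts1 and Adamts15, and aged sham 1 is highest of its group for Adamts9 and Adamts14.

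Members that lie side by side in the genome gave both patterns. Adamts1 and Adamts5 neighbour each other on chromosome 16, both on the minus strand, at chr16:85793827-85803113 and chr16:85858170-85901125, with 55056 bases and no coding gene between them, and both fell. Adamts15 at chr9:30899155-30922452 on the minus strand and Adamts8 at chr9:30942562-30963838 on the plus strand lie head to head, 20109 bases apart with no coding gene between, and of these Adamts15 rose while Adamts8 did not pass the test. The other members lie apart, Adamts4 at chr1:171250421-171260637, Adamts7 at chr9:90163069-90208071, Adamts2 at chr11:50602084-50807573 and Adamts12 at chr15:11064790-11346867 on the plus strand, and Adamts9 at chr6:92772699-92943492 and Adamts14 at chr10:61197112-61273438 on the minus strand. These positions are as deposited (GRCm38).

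All 5 tested fibrillar procollagen genes that Adamts2 and Adamts14 can process were called higher (Col1a1, Col1a2, Col3a1, Col5a1 and Col5a2, log2 fold changes 1.56 to 2.33), and Col2a1 was too low to test. The ratio of Col1a1 to Adamts2 in FPKM was 6.51 to 7.72 in aged sham and 18.4 to 75.8 in aged bleo, and that of Col3a1 to Adamts2 7.85 to 9.92 and 19.8 to 41.4. Neither ratio overlapped between groups, and both were highest in aged bleo 4 and 5. The levels of Col1a1 and Col3a1 alone did not overlap between groups either, while those of Adamts2 did. The separation of the ratios is therefore no added result on Adamts2. Of 4 tested genes for the other procollagen-trimming proteins, Pcolce2, an enhancer of C-propeptide removal, was called lower (log2 fold change -1.77, SE 0.47, adjusted p = 0.0190 by edgeR), while its relative Pcolce (-0.47, adjusted p = 0.0236) stayed under the fold threshold and the C-proteinase genes Bmp1 (0.18, adjusted p = 0.168) and Tll1 (-0.19, adjusted p = 0.455) were not called.

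Of 6 tested genes for proteoglycans and COMP, 3 were called higher and 1 lower, with a median log2 fold change of 0.66. Fmod (fibromodulin) rose from 39.4 ± 8.98 to 542 ± 96.1 CPM, Bgn (biglycan) from 3830.1 ± 101 to 6141 ± 898 CPM, and Acan (aggrecan), though low, from 0.190 ± 0.0839 to 2.61 ± 1.32 CPM (SD, n = 4 and 5). Dcn (decorin) fell from 8122 ± 558 to 2795 ± 1249 CPM. Versican, the best known lung substrate of the hyalectanases, had a log2 fold change of 0.51 with an adjusted p of 0.0327 by edgeR, short of the fold threshold, and 0.61 without aged sham 1, past it. The FPKM ratio of Vcan to Adamts5 was 0.421 to 0.652 in aged sham and 1.11 to 3.95 in aged bleo, without overlap. Comp, the substrate that gives the COMP-cleaving pair its name, stood at 1.15 to 7.14 CPM in aged sham and 2.52 to 10.5 CPM in aged bleo and was not called (log2 fold change 0.64, adjusted p = 0.427), although without aged sham 1 it was (1.46, adjusted p = 0.0594).

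Of 6 tested genes for inhibitors and clearance receptors, Timp1 was called higher and Timp2 and Timp3 lower. Timp3, the inhibitor of Adamts4 and Adamts5, had a log2 fold change of -1.23, beside -1.23 for Adamts5, and the FPKM ratio of Timp3 to Adamts5 overlapped between groups at 11.5 to 13.8 in aged sham and 9.91 to 15.1 in aged bleo. Lrp1, which takes up several ADAMTS enzymes from the cell surface (-0.38, adjusted p = 0.150), Sdc4 (-0.21, adjusted p = 0.433) and Timp4 (-0.63, adjusted p = 0.122) were not called, although Timp4 was without aged bleo 1 (-0.83).

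**Figure D5:**
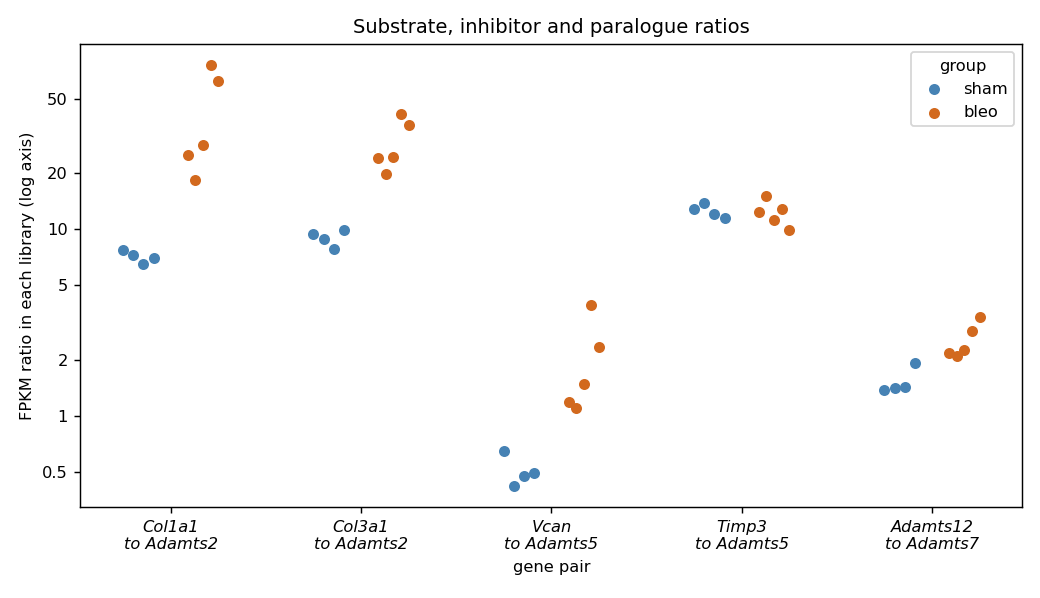
Ratio of deposited FPKM between gene pairs in each library (log axis) for aged sham and aged bleo. The ratios of Col1a1 and Col3a1 to Adamts2, of Vcan to Adamts5 and of Adamts12 to Adamts7 do not overlap between groups, while those of Timp3 to Adamts5 do.

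Genes that act on ADAMTS precursors were split. Furin, which removes the propeptide, rose from 82.3 ± 2.24 to 180.2 ± 38.0 CPM (SD, n = 4 and 5; log2 fold change 1.13, SE 0.15, adjusted p = 7.30e-04 by edgeR), and Pcsk6, a related convertase, fell from 428 ± 15.1 to 72.9 ± 52.8 CPM (log2 fold change -2.55, SE 0.54, adjusted p = 0.00717). Pcsk5 was not called (0.23, adjusted p = 0.233). Pofut2 and B3glct, which put sugars on thrombospondin repeats, were higher in every aged bleo library with log2 fold changes of 0.54 and 0.48 (adjusted p = 8.49e-04 and 0.00503), both under the fold threshold.

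Of the other 9 Adamts genes, 8 were tested, of which 3 were called higher and 1 lower, with a median log2 fold change of -0.20. Adamts17 rose from 5.22 ± 2.45 to 32.2 ± 19.3 CPM (SD, n = 4 and 5; log2 fold change 2.62, SE 0.50, adjusted p = 0.00493 by edgeR), and Adamts6 from 12.3 ± 1.74 to 20.9 ± 4.80 CPM (log2 fold change 0.76, SE 0.17, adjusted p = 0.00863). Both belong, with Adamts10, to the members tied to fibrillin microfibrils. Adamts10 itself, at 30.1 ± 3.36 FPKM in aged sham more abundant per length than all members but Adamts1 and Adamts2, had a log2 fold change of -0.65 and fell just short of the call (edgeR adjusted p = 0.103). Adamts10 was called lower under 8 of 19 alternatives, which were DESeq2 (adjusted p = 0.0509), both other scalings, the 3 limma fits, the replicate block (adjusted p = 0.0942) and the fit without aged bleo 2 (-0.83, adjusted p = 0.0348). Adamts16 (0.80, adjusted p = 0.0782, called higher) lost its call without any one of 6 libraries (aged sham 1, 2 or 3 or aged bleo 3, 4 or 5, adjusted p 0.129 to 0.187). It also lost it by limma on log2(FPKM + 0.1) (0.48) and log2(FPKM + 1) (0.097), under the fold threshold. Adamts19 (-0.87, adjusted p = 0.0953, called lower) lost its call without any one of 7 (aged sham 1, 3 or 4 or aged bleo 1, 3, 4 or 5, adjusted p 0.104 to 0.252). It also lost it without a filter (edgeR adjusted p = 0.118), with the replicate block (edgeR adjusted p = 0.282) and by limma on log2(FPKM + 1) (-0.32). Adamts3, the third procollagen N-proteinase (0.24, adjusted p = 0.188), Adamts13, which cuts von Willebrand factor, and Adamts20 were not called, and Adamts18 was too low to test.

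The ADAMTS-like genes, which carry thrombospondin repeats but no protease domain, gave 5 called lower and none called higher of 7 tested, with a median log2 fold change of -1.09. Adamtsl3 fell from 274 ± 36.1 to 103 ± 45.3 CPM, Adamtsl4 from 175 ± 10.5 to 71.1 ± 31.2 CPM and Adamtsl5 from 190.2 ± 19.3 to 89.6 ± 39.6 CPM (SD, n = 4 and 5, adjusted p = 0.00946, 0.0110 and 0.0228 by edgeR). Papln (-1.65) and Adamtsl1 (-0.78) were the other genes called lower, and Adamtsl1 was not called without aged sham 1 (-0.66, adjusted p = 0.112). Adamtsl2 (0.60, adjusted p = 0.224) and Thsd4 (-0.18, adjusted p = 0.638) were not called, although Adamtsl2 was called higher without aged bleo 4 (0.78, adjusted p = 0.0657). With aged bleo 4 and 5 both left out, Adamts6, Adamts16, Adamts19 and Adamtsl1 were no longer called.

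Of 7 genes for microfibril proteins and partners, 3 were called higher and none lower. Fbn2, a fibrillin that is mostly fetal, rose from 0.557 ± 0.663 to 54.8 ± 17.1 CPM, Ltbp2 from 86.5 ± 32.9 to 1633 ± 308 CPM and Fn1 (fibronectin) from 5471 ± 2115 to 11074 ± 1939 CPM (SD, n = 4 and 5, adjusted p = 1.76e-04, 2.32e-05 and 0.0169 by edgeR). Fbn1 (0.25), Ltbp1 (-0.077), Mfap5 (-0.11) and Mfap2 (0.48, adjusted p = 0.0179, under the fold threshold) were not called.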

How the data were processed

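Gene counts and FPKM of 9 libraries were used, 4 aged sham and 5 aged bleo. The authors deposited raw gene counts and, per library, FPKM (fragments scaled to gene length and library size). Libraries were made from poly-A RNA with a kit that does not mark strand. Per the submitters' processing notes, STAR 2.5.2b, featureCounts and the GRCm38 (mm10) genome were used, with the strand setting not given in the sources used here. Deposited positions were the same as in GENCODE M21 for 8 of the 10 genes, and differ at the ends of Adamts5 and Adamts12.

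Groups came from the sample titles. Counts were tested in edgeR 4.0.16 (R 4.3.3; TMM, quasi-likelihood, genes with a mean count of at least 25), with an adjusted p under 0.10 and a fold change over 1.5 as the call, the thresholds of the study's methods, which name a moderated test. CPM served to compare libraries and FPKM to compare genes. No library was left out, and no 2 libraries of a group agreed within sampling noise. The study's methods describe plotted points as independent mice or culture replicates, and the labels do not say whether a library was 1 animal, so p-values measure the spread between libraries. The limit that a count of 0 allows covers counting error only.

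Alternatives were DESeq2 1.42.0, limma 3.58.1 on log2 CPM and log2(FPKM + 0.1 or 1), other scalings and filters, a replicate block, and each library left out. The script was tested on simulated data. The 10 genes and all lists were chosen with earlier results of these data known. Named genes are the 10, the called or ratio genes of the related lists and at most 4 others of each by mean FPKM, the 3 most like genes for the top member of each group, and outliers. Not every gene that overlaps a member is reported here.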

Additional observations from a re-analysis of the deposited data

Results flagged for a closer look

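In the levels of the 10 genes, 20 groups of libraries were checked for a library far from the others, and 2 stood out, both for Adamts9, where chance marks about 1 in 20. Aged sham 1 had 89.9 CPM of Adamts9, while the other 3 aged sham libraries lay between 17.7 and 24.5 CPM, so the gap was 0.906 of the group's range. Aged bleo 3 had 129 CPM, while the other 4 aged bleo libraries lay between 45.7 and 59.7 CPM, a gap of 0.833 of the range. Aged sham 1 was also the highest of its group for Adamts14, Adamts4, Adamts1 and Adamts7. Gm15737, a gene annotated inside Adamts9, was counted highest in the same libraries, with 320 reads in aged sham 1 and 49 to 79 in the other aged sham libraries, and 328 in aged bleo 3 and 122 to 164 in the other aged bleo libraries, and reads shared by both genes cannot be told apart without strand.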

How the results depend on the processing

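Over 190 values of the 10 genes under 19 alternatives each, 180 kept their direction and their side of the thresholds, none lost a call, 4 gained one and 6 turned direction. The 6 were all of Adamts2, whose log2 fold change was -0.049 by limma with log2 CPM, -0.013 with FPKM and a pseudocount of 0.1 and -0.011 with a pseudocount of 1, and ranged from -0.070 to 0.18 with 1 library left out. The calls gained were Adamts4 (0.64) and Adamts9 (1.68) without aged sham 1, and Adamts9 by limma with log2 CPM (1.08) and with FPKM and the pseudocount 0.1 (1.03); the cause was not tested. A fold threshold of 2 left 3 members called higher in place of 4 (without Adamts15), 1 called lower in place of 2 (Adamts5, without Adamts1) and 2284 genes called in place of 4022, and limma with FPKM and the pseudocount 1, which shrinks low genes, called 1785. Leaving out 1 library gave 3525 to 4597 genes called, and leaving out aged bleo 4 and 5, chosen after seeing the data, 3283, with the same 4 members called higher and 2 lower. Without that pair both falls were smaller. Adamts1 was only just past the fold threshold (log2 fold change -0.588, against -0.79 with all libraries), and Adamts5 was at -0.95 (against -1.23). Of the 48 related genes named, directions turned for Thsd4 (0.029), Mfap5 (0.086) and Ltbp1 (0.012) without that pair, and for Adamts13 by limma with log2 CPM (0.23) and with the replicate block (0.20).

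Replicate numbers did not pair the libraries: same-numbered libraries' deviations from their group means correlated at 0.092, 0.062, -0.13 and 0.33. The fit with the replicate block called 3536 genes, and the same members higher (4) and lower (2). The intervals of Adamts2, Adamts4, Adamts8 and Adamts9 reach past a fold change of 1.5, so at this number of libraries such a change cannot be read as absent.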
